A study of Mus musculus with 4 samples.

Results

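The genes described here encode dual-specificity phosphatases (DUSPs), Sprouty proteins and Spred proteins, and their transcripts were compared between the mouse cell lines TS1 and TS2. The members were all genes whose symbol in the array's annotation starts with Dusp, Spry or Spred followed by a number, by a rule on names that uses no measured value, although it was chosen with earlier results of these data known. There were 31 such genes among 19938 genes with a probe set that names 1 gene. By role they comprised 10 MAP kinase phosphatases, 14 atypical DUSPs, 4 Sprouty genes and 3 Spred genes. TS1 and TS2 are described in the labels as lines derived from CD4+ T lymphocytes. Both were grown untreated in Iscove-Dulbecco's medium with murine interleukin-9, a T cell growth factor, so there was no group without the cytokine. Each line gave 2 biological duplicates, A and B, with 1 Affymetrix array for each duplicate. No genotype, strain or age is given for the animals of origin, and each group is a single line, so what sets TS1 apart from TS2 cannot be told apart from what sets any 2 lines apart. The p-values rest on the spread between these duplicates together with variance shared over all genes. The labels do not say how separate the cultures were.

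Mitogen-activated protein kinases (MAP kinases) are switched on by phosphorylation of a threonine and a tyrosine, and dual-specificity phosphatases remove both phosphates. The MAP kinase phosphatases carry a docking domain that binds ERK, JNK or p38, and several of them are transcribed when the kinase they silence is active, which closes a feedback loop. Atypical DUSPs lack that docking domain and act on a wider range of substrates, RNA included. Sprouty and Spred proteins act higher up, where they restrain Ras and Raf below growth factor and cytokine receptors. In T cells these proteins shape how long signals from the antigen receptor and from cytokines last.

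The upstream sequences of 4 genes are given. Dusp6 and Spry2 were higher in TS2 and Spred1 was higher in TS1, while its paralog Spred2 lay on the side of TS2 just short of the threshold. Dusp14 and Dusp28 were also higher in TS1 but are not printed, the former because its window overlaps the gene itself. Each window is the 250 bases before a start listed for the gene in RefSeq (mouse build GRCm38.p6), and some genes have several windows. A window can therefore lie inside its gene. Windows run 5′ to 3′ on the gene's strand. Every GGAA, the core bound by ETS transcription factors that ERK activates, and its reverse complement TTCC are in capitals.
Dusp6 (chr10:99262981-99263230, plus strand): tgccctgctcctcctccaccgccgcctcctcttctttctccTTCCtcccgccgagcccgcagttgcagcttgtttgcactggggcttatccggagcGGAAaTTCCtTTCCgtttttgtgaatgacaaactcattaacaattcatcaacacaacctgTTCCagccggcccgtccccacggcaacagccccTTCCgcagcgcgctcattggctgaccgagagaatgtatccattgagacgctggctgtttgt
Spry2 (chr14:105896820-105897069, minus strand): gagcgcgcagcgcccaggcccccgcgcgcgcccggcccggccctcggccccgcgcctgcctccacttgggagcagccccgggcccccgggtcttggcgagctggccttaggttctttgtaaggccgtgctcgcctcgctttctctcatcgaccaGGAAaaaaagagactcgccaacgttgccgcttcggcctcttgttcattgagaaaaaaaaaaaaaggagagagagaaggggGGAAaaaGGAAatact
Spred1 (chr2:117120821-117121070, plus strand): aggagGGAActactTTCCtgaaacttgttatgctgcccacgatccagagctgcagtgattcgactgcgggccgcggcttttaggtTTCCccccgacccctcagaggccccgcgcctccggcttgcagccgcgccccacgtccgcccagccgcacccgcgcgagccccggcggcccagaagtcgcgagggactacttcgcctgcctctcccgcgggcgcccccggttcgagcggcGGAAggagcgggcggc
Spred2 (chr11:19924192-19924441, plus strand): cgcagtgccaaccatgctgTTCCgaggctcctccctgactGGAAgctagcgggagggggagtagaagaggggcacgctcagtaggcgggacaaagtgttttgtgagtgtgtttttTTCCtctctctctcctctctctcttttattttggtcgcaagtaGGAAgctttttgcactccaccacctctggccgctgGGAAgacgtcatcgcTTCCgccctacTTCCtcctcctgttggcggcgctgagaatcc
The core occurred 6 times in the Dusp6 window, 3 times in the Spry2 window, 4 times in that of Spred1 and 7 times in that of Spred2. In the unprinted windows of Dusp14 and Dusp28 the core occurred 4 and 2 times. It is a short and common run of letters: 93.4% of 32851 windows of the same length held it at least once, with a median of 3 per window. Windows were found for 23 of the 31 genes, 26 windows in all. Of these 26, 21 held the core (80.8%), with a median of 2 per window, so the members did not exceed all windows. The cyclic AMP response element TGACGTCA was found in 2 of the 26 windows (1.55% of all windows), and its shorter core TGACG or the reverse complement, which the full element contains, in 7 of 26 (17.8% of all windows), among them that of Spred2. The AP-1 element TGACTCA was found in 1 of 26 (4.46% of all windows) and the CArG box of serum response factor in 1 of 26 (1.47%). TATAAA on either strand was found in 0 of 26 windows, against 12.4% of all windows. The GC box GGGCGG or its reverse complement was found in 16 of 26 windows, against 32.7% of all. The median GC content of the members' windows was 59.4%, against 52.4% for all windows. These are matches of letters and were not tested as sites.

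Over the whole family, few genes differed between the lines, and the share was close to that of all genes. All values below are log2 intensities of 1 probe set per gene, the brightest by the mean of the 4 arrays. Every difference is the TS2 mean less the TS1 mean in log2 units, from n = 2 arrays in each line, and SE is its standard error. In these bulk samples, a larger share of expressing cells and more RNA per cell cannot be told apart. A gene passed at a Benjamini-Hochberg adjusted p under 0.05 by limma, adjusted over all 19938 genes. Of the 31 genes, 26 did not pass. Higher in TS2 were 2 (Dusp6 and Spry2) and higher in TS1 were 3 (Dusp14, Dusp28 and Spred1). That is 16.1% of the members, against 13.5% of all genes. By direction, 5.05% of all genes were higher in TS2 and 8.45% higher in TS1. A 2-fold difference was reached by 3 members, against 6.04% of all genes. Values of TS1 and TS2 were fully separate for 17 members, a share of 54.8%, against 58.4% of all genes. The median difference was 0.0018 over the members and 0.013 over all genes, and the median size of the difference was 0.15 and 0.16. With 2 arrays per line the smallest two-sided p of an exact permutation test is 0.333, so none is quoted for single genes.

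**Figure D1:**
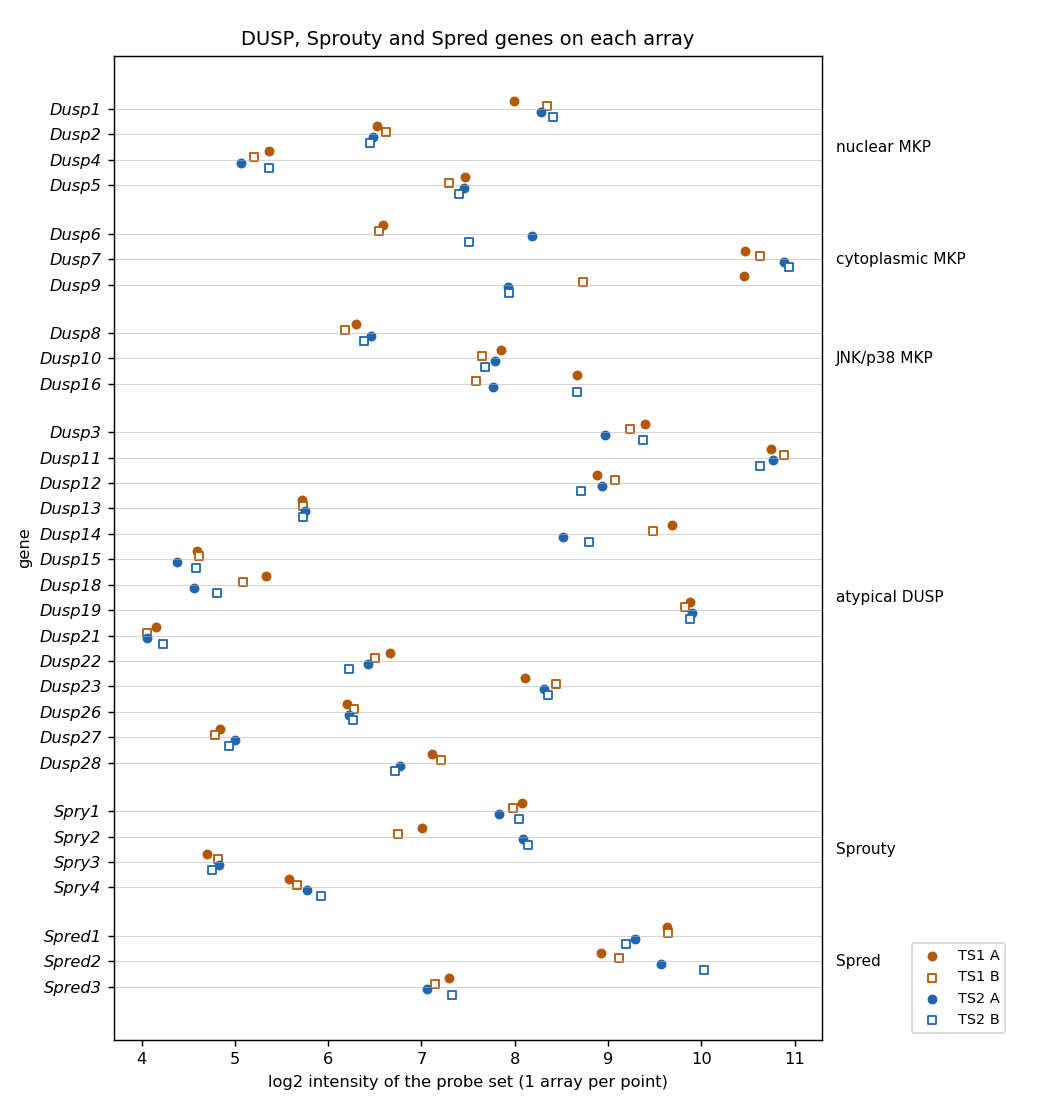
Log2 intensity (horizontal axis) of the probe set of each of the 31 genes (vertical axis) on each array, with circles for duplicate A, squares for duplicate B, orange for TS1 and blue for TS2; MKP stands for MAP kinase phosphatase. The lines separate clearly for Dusp6, Dusp14 and Spry2, while the duplicates themselves lie apart for Dusp9 and Dusp16.

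The cytoplasmic phosphatases of ERK, 3 genes, held the largest differences of all phosphatases, those of Dusp6 and Dusp9, which lay in opposite directions. That of Dusp6 passed and that of Dusp9 did not. Dusp6, which encodes the cytoplasmic ERK phosphatase MKP-3 and is itself a transcriptional target of ERK signalling, had a log2 intensity of 6.59 (A) and 6.55 (B) in TS1 and 8.18 (A) and 7.51 (B) in TS2. Both TS2 arrays were above both TS1 arrays, and the TS2 duplicates lay 0.67 apart. Dusp6 was 2.42-fold higher in TS2 (difference 1.28, SE 0.23, 95% interval 0.69 to 1.86, adjusted p = 0.0277 by limma). Dropping array TS1 A (difference 1.30, adjusted p = 0.0811) or array TS1 B (difference 1.26, adjusted p = 0.0991) ended the call. Without moderation of the variances 0 genes passed at all, and that setting is not repeated at each gene.

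Dusp9, an X-linked relative of Dusp6, stood at 10.45 (A) and 8.73 (B) in TS1 and 7.93 (A) and 7.94 (B) in TS2. The TS2 duplicates were nearly equal, whereas TS1 A exceeded TS1 B by 1.72, a distance larger than that of 99.7% of all genes between the TS1 duplicates. The difference of -1.66 (SE 0.55, 95% interval -3.07 to -0.25) did not pass by limma (adjusted p = 0.123), although it was the largest in size of all members. Without TS1 A the difference was -0.80 (adjusted p = 0.0237) and without TS1 B it was -2.52 (adjusted p = 0.00308). In both of these fits the remaining TS1 array is assumed to vary as little as the TS2 pair.

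Dusp7, the third ERK phosphatase of the cytoplasm, was measured at 10.47 (A) and 10.63 (B) in TS1 and 10.89 (A) and 10.95 (B) in TS2. The lines did not overlap, but the difference of 0.37 (SE 0.10, 95% interval 0.11 to 0.62) did not pass (adjusted p = 0.0791 by limma). It passed only after quantile normalization was applied again (adjusted p = 0.0410).

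The nuclear MAP kinase phosphatases, which are induced as early response genes, differed little between the lines, and 0 of 4 passed by limma or had an unadjusted p under 0.05. Dusp1, which acts on p38, JNK and ERK, ran from 7.99 to 8.34 in TS1 and from 8.28 to 8.41 in TS2 (difference 0.18, 95% interval -0.19 to 0.55). Dusp2, first described in activated T cells, lay at 6.53 and 6.62 in TS1 and at 6.49 and 6.45 in TS2 (difference -0.11, 95% interval -0.34 to 0.12). Dusp5, which is specific for ERK, differed by 0.045 (95% interval -0.21 to 0.30), and Dusp4 by -0.066 (95% interval -0.42 to 0.29). These intervals hold differences of up to 0.55 in size on the log2 scale. The sign was not the same in every fit for Dusp4, which was positive without TS1 A or TS2 A, or for Dusp5, which was negative without TS1 B.

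Of the 3 phosphatases that prefer JNK and p38, 0 passed by limma or had an unadjusted p under 0.05. Dusp10, which restrains JNK and p38 in T cells, lay between 7.65 and 7.85 on all 4 arrays (difference -0.020, 95% interval -0.30 to 0.26), and the sign turned after centring the arrays on their medians, after quantile normalization and when TS1 A or TS2 B was dropped. Dusp8 differed by 0.18 (95% interval -0.069 to 0.42). Dusp16, a JNK phosphatase that shuttles between nucleus and cytoplasm, had a pattern of its own. Its log2 intensity was 8.66 on TS1 A and 8.66 on TS2 B, but 7.59 on TS1 B and 7.77 on TS2 A. Each line thus had 1 high and 1 low array, with opposite letters. The distance between duplicates was larger than that of 99.1% of all genes in TS1 and of 99.2% in TS2. The line means differed by 0.090 with a 95% interval of -1.06 to 1.24, and the difference was negative without TS1 B (-0.45) or TS2 B (-0.36).

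**Figure D2:**
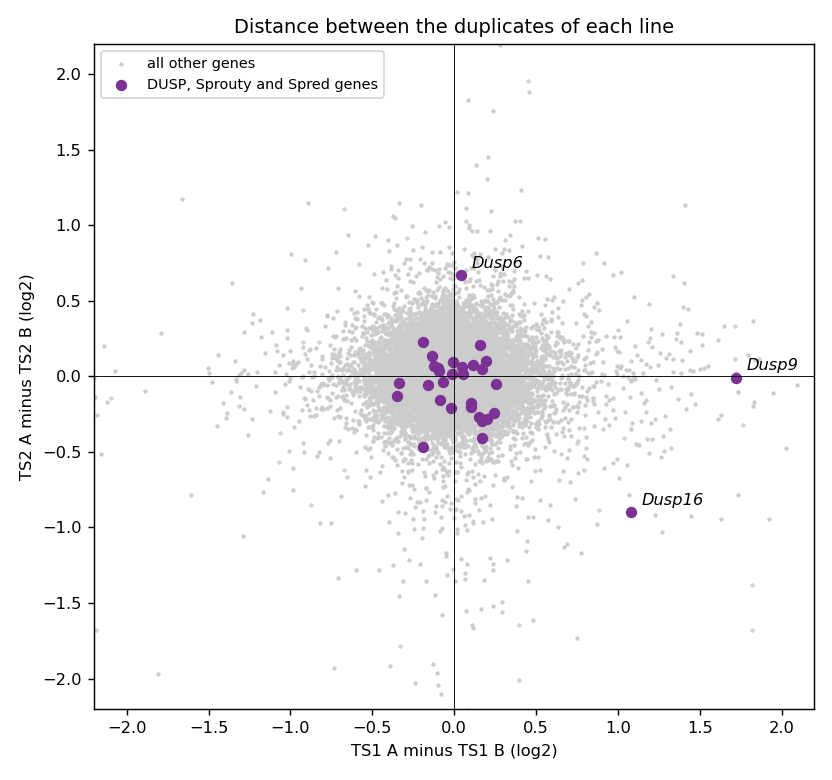
Distance between the duplicates, A minus B on the log2 scale, in TS1 (horizontal axis) and TS2 (vertical axis), with the 31 genes in purple and all other genes in grey; 52 genes lie beyond the axes. Dusp9 is far from 0 in TS1 alone (1.72), Dusp16 in both lines with opposite signs (1.08 and -0.90), and Dusp6 in TS2 alone (0.67).

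For most of the 31 genes the duplicates were much closer. The median distance between duplicates over the members was 0.15 in TS1 and 0.13 in TS2, against 0.13 and 0.11 over all genes. The cause of the spread of Dusp9 and Dusp16 was not tested.

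Among the 14 atypical DUSPs, 2 passed, both higher in TS1. Dusp14, a small phosphatase known as a brake on T cell receptor signalling, had a log2 intensity of 9.68 (A) and 9.48 (B) in TS1 and 8.51 (A) and 8.79 (B) in TS2. Both TS1 arrays were above both TS2 arrays by more than the duplicates of either line lay apart. It was 1.90-fold higher in TS1 (difference -0.93, SE 0.14, 95% interval -1.28 to -0.58, adjusted p = 0.0172 by limma). Dropping array TS1 A (adjusted p = 0.0540) or array TS2 A (adjusted p = 0.0779) ended the call, as did a block for the letters A and B (adjusted p = 0.0507).

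Dusp28, a little-studied atypical member, lay at 7.11 (A) and 7.21 (B) in TS1 and 6.77 (A) and 6.71 (B) in TS2. The lines did not overlap, and the difference was -0.41 (SE 0.092, adjusted p = 0.0478 by limma), a 1.33-fold excess in TS1. This call sat just inside the threshold. It did not survive the loss of any single array (adjusted p from 0.0750 when TS1 A was dropped to 0.224 when TS2 B was), a block for the letters (adjusted p = 0.104), an intensity trend in the prior variance (adjusted p = 0.0646), centring (adjusted p = 0.0544) or quantile normalization (adjusted p = 0.0631).

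The other 12 atypical genes did not pass by limma. Dusp18, a phosphatase of mitochondria, was measured at 5.33 (A) and 5.08 (B) in TS1 and 4.57 (A) and 4.81 (B) in TS2, with a difference of -0.52 (adjusted p = 0.0759). Dusp22, which dampens the T cell receptor by dephosphorylating the kinase Lck, was 6.66 and 6.50 in TS1 and 6.43 and 6.22 in TS2 (difference -0.26, 95% interval -0.56 to 0.044). For both genes the TS1 values were above the TS2 values on all arrays. Dusp11, a phosphatase that acts on the 5′ end of RNA, lay between 10.63 and 10.89 on all 4 arrays, and Dusp19, a regulator of JNK signalling, between 9.83 and 9.90. Their lines differed by -0.12 (95% interval -0.39 to 0.14) and 0.034 (95% interval -0.19 to 0.26). Dusp3, a phosphatase of ERK and JNK, differed by -0.15 (95% interval -0.56 to 0.27), and its sign turned without TS2 A. Of the remaining 7, Dusp12 and Dusp15 differed by -0.15 and -0.12. Dusp27, a muscle protein without catalytic activity, differed by 0.15, and Dusp13, known from testis and muscle, by 0.019. Dusp23, Dusp21 and Dusp26 differed by 0.064, 0.037 and 0.0018, each with a sign that turned when certain single arrays were dropped. For 7 of the 14 atypical genes the mean log2 intensity was below the median of all genes, 6.61.

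The Sprouty genes differed in 1 of 4 members. Spry2, an inhibitor of Ras and Raf activation that is transcribed after receptor tyrosine kinase signalling, had a log2 intensity of 7.01 (A) and 6.75 (B) in TS1 and 8.09 (A) and 8.14 (B) in TS2. The lines lay far apart next to the distance between their duplicates. Spry2 was 2.35-fold higher in TS2 (difference 1.24, SE 0.12, 95% interval 0.93 to 1.54, adjusted p = 0.00515 by limma). It passed in 11 of 12 alternatives, each fit with an array left out among them, and missed only where variances were not moderated (adjusted p = 0.161). Across these alternatives its difference ran from 1.11 to 1.36.

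The other Sprouty genes did not pass. Spry4, likewise an inhibitor of the pathway, lay at 5.58 and 5.67 in TS1 and at 5.78 and 5.93 in TS2. Its arrays did not overlap, with a difference of 0.23 (95% interval -0.033 to 0.49, adjusted p = 0.221 by limma). Spry1, known as a brake on T cell activation, ran from 7.84 to 8.08 over the 4 arrays (difference -0.090, 95% interval -0.38 to 0.20), and Spry3 from 4.70 to 4.83 (difference 0.029). Quantile normalization turned the sign of both Spry1 and Spry3, as did dropping TS2 A, and for Spry3 also dropping TS1 A.

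The Spred genes, whose products bring the Ras-inactivating protein neurofibromin to the membrane, included 2 with opposite directions. Spred1 was measured at 9.64 (A) and 9.65 (B) in TS1 and 9.29 (A) and 9.19 (B) in TS2. The TS1 duplicates were nearly equal and both above TS2, a difference of -0.40 (SE 0.090, 95% interval -0.63 to -0.17, adjusted p = 0.0486 by limma), or 1.32-fold. As for Dusp28, the call ended with the loss of any single array (adjusted p from 0.105 when TS1 A was dropped to 0.237 when TS2 B was), a block for the letters (adjusted p = 0.101), an intensity trend (adjusted p = 0.0507), centring (adjusted p = 0.0650) or quantile normalization (adjusted p = 0.0785).

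Spred2 stood at 8.93 (A) and 9.12 (B) in TS1 and 9.57 (A) and 10.03 (B) in TS2. Both TS2 arrays were above TS1, but the TS2 duplicates lay 0.47 apart. The difference of 0.77 (SE 0.18, 95% interval 0.31 to 1.24) fell just outside the threshold (adjusted p = 0.0537 by limma). It passed in 8 of 12 alternatives, with adjusted p between 0.0402 and 0.306 over all of them. The 8 included a block for the letters (adjusted p = 0.0427) and the loss of array TS2 A (adjusted p = 0.0450). Dropping array TS1 A, TS1 B or TS2 B gave an adjusted p of 0.151, 0.109 and 0.154. Spred3 lay between 7.06 and 7.33 on all 4 arrays (difference -0.023, 95% interval -0.36 to 0.31), with a sign that turned after centring, after quantile normalization and when TS1 A or TS2 A was dropped. A direct test of Spred1 against Spred2 was not made.

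**Figure D3:**
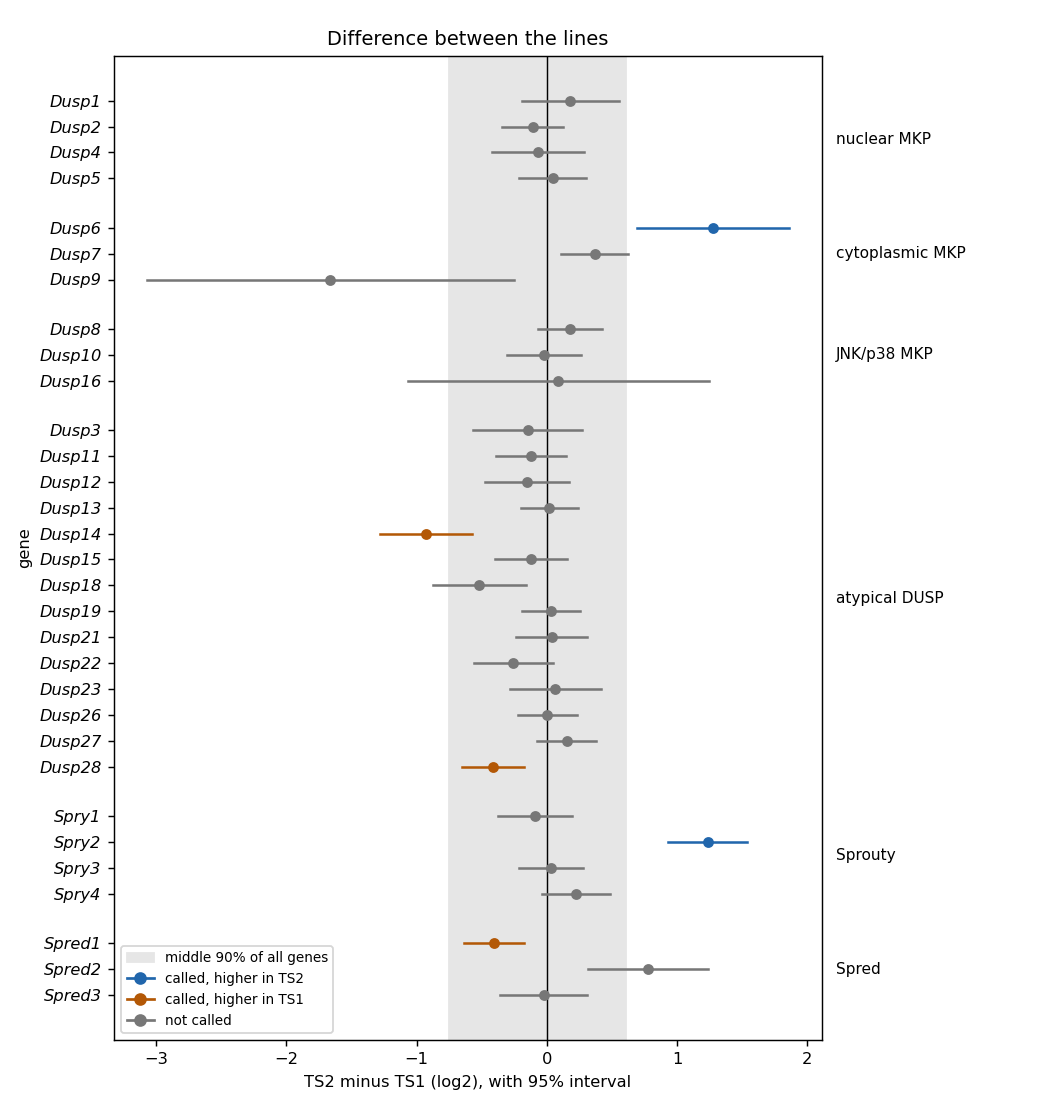
TS2 minus TS1 on the log2 scale (horizontal axis) with its 95% interval for each of the 31 genes (vertical axis), blue for those that passed and were higher in TS2, orange for those that passed and were higher in TS1; the grey band holds the middle 90% of all 19938 genes, from -0.75 to 0.61. Dusp6 and Spry2 lie to the right of the band, Dusp14 and Dusp9 to its left, Spred2 lies to its right without passing, and Dusp28 and Spred1 passed inside the band.

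By class, the 10 MAP kinase phosphatases had a median difference of 0.068, the 14 atypical DUSPs -0.12, the 4 Sprouty genes 0.13 and the 3 Spred genes -0.023. In all, 21 of the 31 genes lay less than 0.25 apart on the log2 scale and did not pass.

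The cascade that these proteins act on differed in part. Of 43 listed genes of the path from receptor adaptors through Ras to the MAP kinases, 36 were measured. Of these 36, 29 did not pass, 3 passed on the side of TS2 and 4 on that of TS1, 19.4% against 13.5% of all genes, with a median difference of -0.0091.

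The 3 genes higher in TS2 act at or just above Ras. Rasgrp1, an exchange factor that loads Ras with GTP in lymphocytes, was 5.51 and 5.86 in TS1 and 9.95 and 9.73 in TS2, a difference of 4.15 (SE 0.15, adjusted p = 0.000405 by limma). Shc1, a receptor adaptor, differed by 0.60 (adjusted p = 0.0266) and Nras, a Ras protein, by 0.50 (adjusted p = 0.0312). The call of Shc1 rested on arrays TS1 B, TS2 A and TS2 B: dropping them in turn gave an adjusted p of 0.0785, 0.147 and 0.107. That of Nras ended with the loss of any single array (adjusted p from 0.0611 when TS1 B was dropped to 0.170 when TS2 A was) and with a block for the letters (adjusted p = 0.0757).

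On the side of TS1, the 4 genes that passed were 2 of the p38 branch and 2 that switch Ras off. Map2k6, a kinase that activates p38, differed by -1.61 (SE 0.096, adjusted p = 0.0014), and Mapk11, the p38 beta isoform, by -1.26 (SE 0.15, adjusted p = 0.0089). The other listed genes of that branch did not pass. Map2k3, Mapk14 and Mapk12 differed by -0.43, -0.14 and -0.020, and Mapk13 by 0.28. Nf1, which encodes neurofibromin, was 9.44 and 9.26 in TS1 and 8.28 on both TS2 arrays, a difference of -1.07 (SE 0.10, adjusted p = 0.00514). Rasa3, another Ras GTPase-activating protein, differed by -1.17 (SE 0.25, adjusted p = 0.0449). Not all listed regulators of Ras lay this way. Rasa1, Rasa2 and Rasal3, which also switch Ras off, differed by 0.26, 0.24 and 0.35, without passing. Of the exchange factors beside Rasgrp1, Rasgrp2 and Sos2 differed by -0.79 and -0.19, and Sos1, Rasgrp3 and Rasgrp4 by 0.43, 0.18 and 0.61, also without passing. For Rasa3, dropping array TS1 A, TS1 B or TS2 B gave an adjusted p of 0.120, 0.137 and 0.0515, and a block for the letters, centring and quantile normalization gave 0.0610, 0.0514 and 0.0582, all above the threshold of 0.05. Without TS1 B, and without TS2 B, 1 cascade gene in place of 3 was higher in TS2, and 2 without TS2 A.

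Of 6 genes listed as partners of Sprouty and Spred proteins, 4 did not pass and 2 were higher in TS1. That is 33.3% of a short list against 13.5% of all genes. Kbtbd7, among those higher in TS1, was listed for its action on neurofibromin and not as a partner itself. Beside Nf1, Kbtbd7, an adaptor of a ubiquitin ligase that targets neurofibromin, was 8.42 and 8.35 in TS1 and 5.52 and 5.86 in TS2, a difference of -2.70 (SE 0.14, adjusted p = 0.000902 by limma). Cblb and Cbl, ubiquitin ligases, differed by -0.43 (adjusted p = 0.0595) and -0.23 (adjusted p = 0.203), and Cblb passed with the dimmest genes left out (adjusted p = 0.0498). Grb2, an adaptor, differed by -0.35 (adjusted p = 0.213) and Tesk1, a kinase that Sprouty proteins bind, by 0.057 (adjusted p = 0.723).

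Among 20 genes known to be transcribed after ERK activation, some of which other pathways drive as well, 14 did not pass, 5 passed on the side of TS2 and 1 on that of TS1, 30% against 13.5% of all genes, with a median difference of 0.16. The immediate early gene Egr1 was 6.15 and 6.25 in TS1 and 7.78 and 8.22 in TS2, a difference of 1.80 (SE 0.17, adjusted p = 0.00455 by limma). Junb, a subunit of the AP-1 factor, differed by 0.90 (adjusted p = 0.0111), a call that ended when array TS2 A (adjusted p = 0.0511) or array TS2 B (adjusted p = 0.0661) was dropped. Lif, a cytokine gene, differed by 3.84 (adjusted p = 0.000772) and the growth regulator Myc by 2.33 (adjusted p = 0.00157). Fos differed by 0.46 (adjusted p = 0.0316) and fell short with the loss of any single array (adjusted p from 0.0740 when TS1 A was dropped to 0.178 when TS2 A was) and with a block for the letters (adjusted p = 0.0765). Ier3, the one on the side of TS1, is an early response gene and had a difference of -0.98 (SE 0.11, adjusted p = 0.00897). Of the 14 that did not pass, Phlda1, Etv4, Epha2, Fosl1, Spsb1, Plaur and Hmga2 differed by -0.27 to -0.0070. The others, Etv5, Etv1, Ccnd1, Epha4, Egr2, Egr3 and Ier2, differed by 0.00067 to 0.46. In place of 5, 3 passed on the side of TS2 when array TS2 A was dropped and 3 when array TS2 B was.

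**Figure D4:**
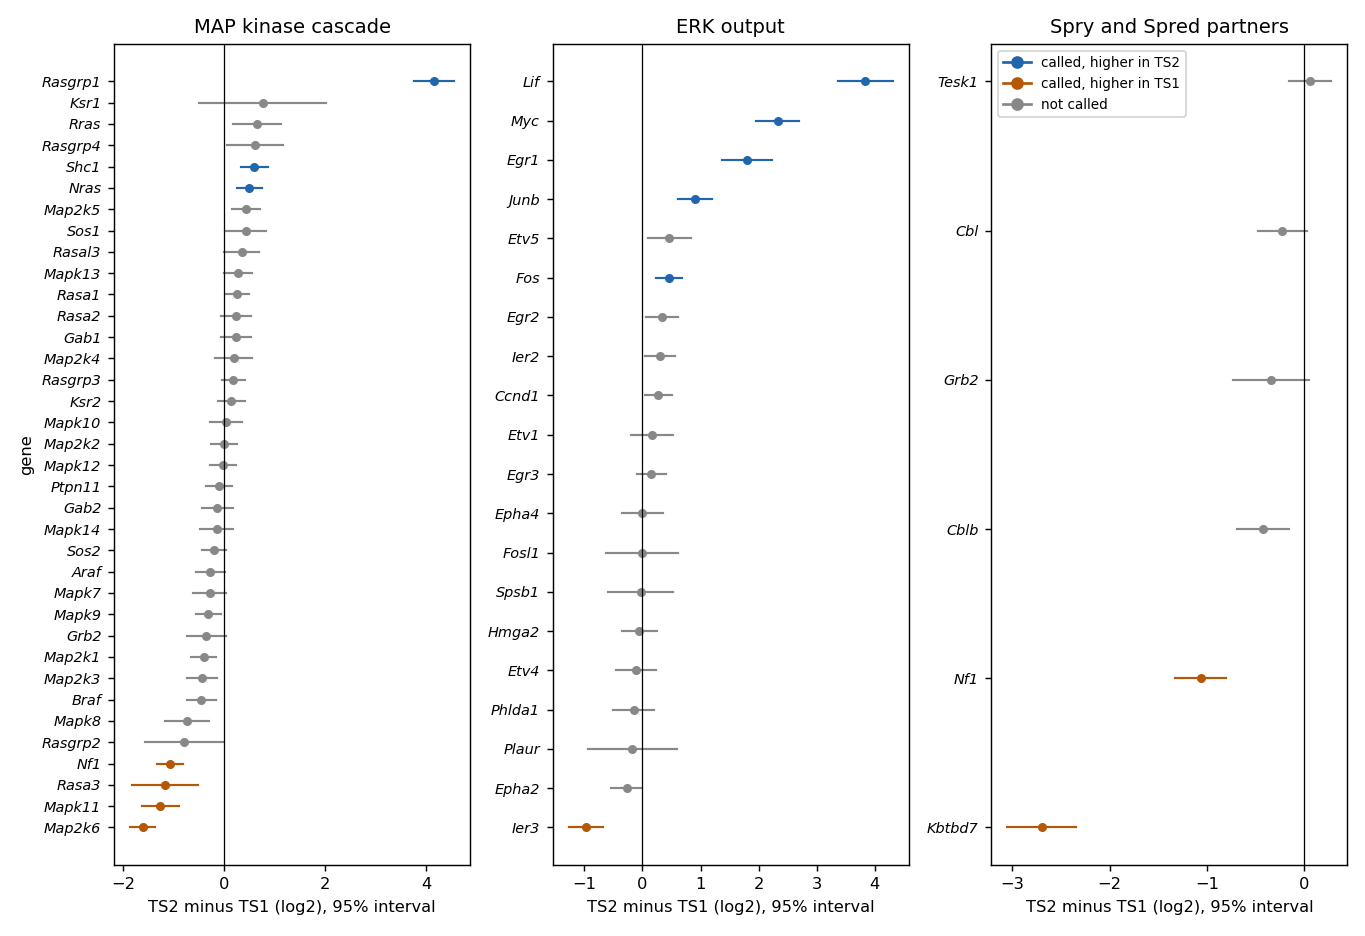
TS2 minus TS1 on the log2 scale (horizontal axes) with its 95% interval for each gene (vertical axes). The lists are 36 genes of the MAP kinase cascade, 20 genes transcribed after ERK activation and 6 genes listed as partners of Sprouty and Spred proteins. Colours mark genes that passed and were higher in TS2 (blue), passed and were higher in TS1 (orange) or did not pass (grey). Rasgrp1 (4.15), Lif (3.84) and Kbtbd7 (-2.70) have the largest differences of their lists.

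The lines also differed in markers of the cell type that the labels give. The median intensity was 88.6 to 92.5 on the 4 arrays, and Pearson's r over all probe sets was 0.992 and 0.994 between duplicates and 0.969 to 0.976 between lines. Of 12 measured T cell markers of 13 listed, 4 were higher in TS2 (Cd3e, Cd247, Ptprc and Zap70) and 0 in TS1, and their summed intensity was 1006 to 2319 in TS1 and 13286 to 14755 in TS2. Array TS1 A stood apart in Cd3g, at 10.52 on the log2 scale against 6.07 on TS1 B, with 10.39 (A) and 11.98 (B) in TS2, and Cd3g did not pass (adjusted p = 0.281) except without TS1 A (adjusted p = 0.0270). The TS2 duplicates lay apart in Cd28, at 7.14 (A) and 4.95 (B), with 4.66 (A) and 4.38 (B) in TS1. Cd28 did not pass (difference 1.53, adjusted p = 0.232 by limma), and without TS2 B its difference was 2.63. Cd4 was low in both lines, from 5.15 to 5.38 on the log2 scale, and Cd3d lay between 4.63 and 4.92. Cd2, Cd5, Cd8a and Thy1 lay between 4.96 and 6.32 on all arrays, below the median of all genes, 6.61. Mast cell markers, 5 of 5 measured, summed to 7467 to 8474 in TS1 and 9038 to 12216 in TS2, with Kit higher in TS1. Most of each sum came from Fcer1a, at 12.69 (A) and 12.91 (B) in TS1 and 13.00 (A) and 13.08 (B) in TS2 on the log2 scale. Fcer1a, Cpa3 and Hdc, all mast cell markers, differed by 0.24, -0.64 and -0.079 and did not pass. Mcpt8, another of them, did not pass (difference 4.61, adjusted p = 0.0773) except without TS2 A (adjusted p = 0.0102): it was 5.75 and 4.55 in TS1 but 7.89 and 11.64 in TS2, highest on TS2 B. Myeloid markers (5 of 5) summed to 350.5 to 387.3 in TS1 and 259.7 to 286.2 in TS2, fibroblast markers (5 of 5) to 415.1 to 534.8 and 379.8 to 387.8, B cell markers (4 of 5) to 160.9 to 165.4 and 156.5 to 165.1, and epithelial markers (4 of 4) to 250.7 to 263.1 and 256.0 to 285.3. The one erythroid marker of 4 listed that was measured, Klf1, was 157.4 to 170.8 in TS1 and 67.97 to 84.67 in TS2. One gene of each of 4 of these lists was higher in TS1 (Cd68, Kit, Pdgfra and Klf1). The call of Cd68 ended after quantile normalization (adjusted p = 0.0534) and with the loss of TS1 A, TS2 A or TS2 B (adjusted p of 0.0703, 0.0883 and 0.136), and that of Pdgfra with the loss of TS1 B, TS2 A or TS2 B (adjusted p of 0.0572, 0.141 and 0.0781). The part of these differences in the values of the DUSP, Sprouty and Spred genes was not tested.

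How firmly each difference held is shown by the fits under other settings. The 2 genes higher in TS2 and the genes higher in TS1 kept their direction in each of 12 alternatives, whereas the calls other than that of Spry2 were lost in several of them. With any single array left out, between 1 and 3 members were higher in TS2 and between 0 and 2 higher in TS1. Without TS1 A, the single member higher in TS2 was Spry2 and the single one higher in TS1 was Dusp9. Without TS1 B, it was again Spry2, with Dusp14 and Dusp9 higher in TS1.

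**Figure D5:**
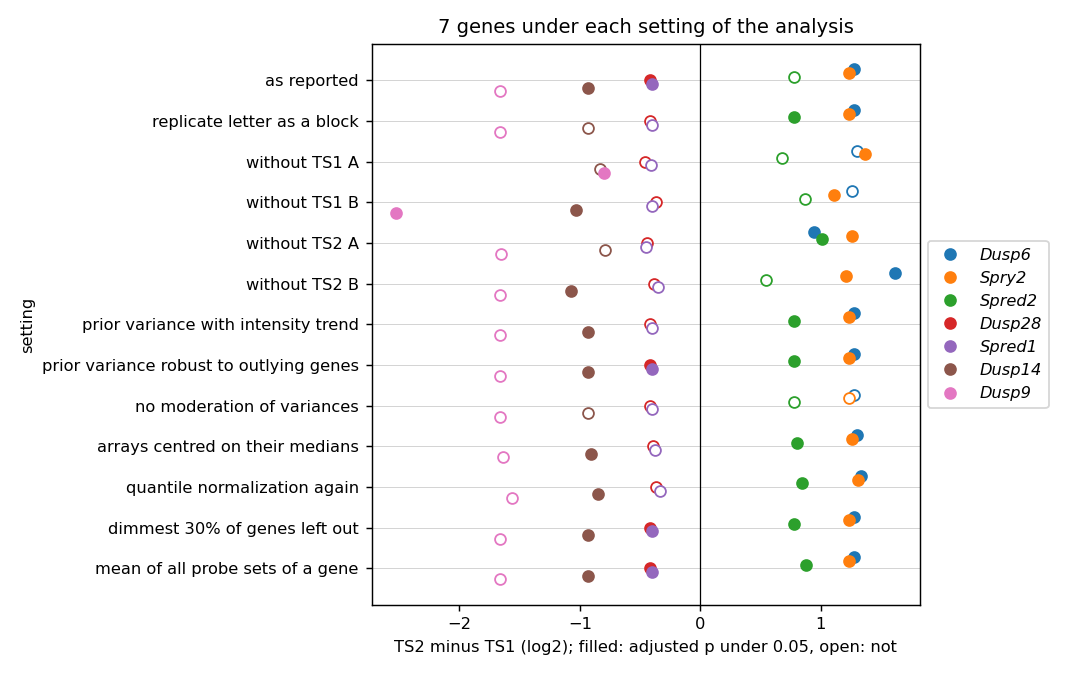
TS2 minus TS1 on the log2 scale (horizontal axis) of 7 genes under each setting of the analysis (vertical axis), filled where the adjusted p was under 0.05 and open where it was not. Spry2 stays between 1.11 and 1.36 and is filled everywhere except without moderation, and Dusp9 moves from -2.52 to -0.80 with the TS1 array that is left out.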

How the data were processed

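Total RNA was measured on 4 Affymetrix mouse gene arrays. The deposited values are linear intensities, from 5.98 to 23157, 1 per probe set and array; per the submitters' processing notes the tools RMA and Affymetrix's Expression Console were named, with no role or order. Their version and any filter were not stated in the sources used here. As usually run, RMA equalises the arrays' distributions, so a change common to nearly all genes would not show, and the number of arrays limits the precision. Log2 was taken here, with 0 missing or non-positive values. Of 35556 probe sets, 21789 name 1 gene in the platform annotation, 1621 several and 12146 none; symbols were updated by Entrez number for 21698. The brightest probe set stood for each of 19938 genes.

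All 4 arrays were fitted with the line as factor (limma 3.58.1, R 4.3.3, lmFit and eBayes, 2 residual and 3.03 prior degrees of freedom). The fit was also run on data simulated from its own variance model. That run checks the code and cannot show how well the model suits these arrays. The members, lists (MAP kinase cascade, genes transcribed after ERK activation, Sprouty and Spred partners, cell type markers) and tests were chosen with earlier results of these data known. Named were all members and, of each pathway list, up to 4 genes per direction that passed, with the largest differences. Fos, the 4 partners that did not pass and the cell type markers were named outside that rule, after their values were seen. So were the regulators of Ras, the p38 genes, Mapk8, Map2k1 and the genes transcribed after ERK activation that did not pass. The alternatives are listed with the limits below. Promoter windows came from RefSeq (GRCm38.p6).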

Additional observations from a re-analysis of the deposited data

How the results depend on the processing

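The alternatives, 12 in all, were a replicate block (the letters A and B), 4 fits that each drop an array, an intensity trend or robustness in the prior variance, no moderation, centring, quantile normalization, the dimmest 30% of genes left out (25 of 31 members remained) and averaging a gene's probe sets. Of the 31 members, 20 kept their direction in all of those that gave a value. The labels do not say whether the letters pair the lines. Deviations from the line means correlated at -0.029 across all genes between equal letters. Whether the letters share an effect on part of the genes was not tested. With the letter as a block, 1666 genes passed in place of 2691, and 0 members in place of 3 were higher in TS1 (5 at an unadjusted p under 0.05), while 3 in place of 2 were higher in TS2. Without moderation 0 genes passed (4156 at an unadjusted p under 0.05), 0 members higher in TS2 (2) and 0 in TS1 (3), 0 cascade genes (4 and 4) and 0 ERK-induced genes (6 and 1). Members higher in TS1 numbered 1 after centring, 1 with the trend and 1 after quantile normalization, where 4 were higher in TS2. Cascade genes higher in TS1 numbered 4 as reported, 5 with the robust prior and 6 without the dimmest genes. They numbered 3 with the block, after centring and after quantile normalization. Mapk8 (difference -0.72, adjusted p = 0.0548 by limma) passed in both fits with more genes. Map2k1 (difference -0.40, adjusted p = 0.0592) passed only without the dimmest genes. With single arrays left out, 979 to 2198 genes passed, 1 to 3 members were higher in TS2 and 0 to 2 in TS1, 1 to 3 cascade genes were higher in TS2 and 3 to 4 in TS1, and of ERK-induced genes 3 to 4 passed on the side of TS2 and 1 on that of TS1.

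Signs turned only for members that did not pass. After centring, Dusp10 was at 0.0037 and Spred3 at 0.00077. After quantile normalization, Dusp10 was at 0.067, Dusp26 at -0.00057, Spry1 at 0.012, Spry3 at -0.012 and Spred3 at 0.033. With single arrays left out, the ranges were -0.22 to 0.083 for Dusp4, -0.039 to 0.13 for Dusp5, -0.12 to 0.078 for Dusp10, -0.45 to 0.63 for Dusp16, -0.35 to 0.056 for Dusp3, -0.052 to 0.12 for Dusp21, -0.10 to 0.23 for Dusp23, -0.033 to 0.037 for Dusp26, -0.19 to 0.013 for Spry1, -0.031 to 0.089 for Spry3 and -0.16 to 0.11 for Spred3. The cause of these changes was not tested. Signal over background was not examined.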

Other observations

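For 3 of the 31 genes the array holds a second probe set that names the same gene. Both probe sets of Spred2, a Ras pathway inhibitor, were higher in TS2: the dimmer one stood at 8.05 (A) and 8.45 (B) in TS1 and 9.05 (A) and 9.41 (B) in TS2 on the log2 scale, a difference of 0.98, next to 0.77 for the brighter one. The probe sets of Dusp8, a phosphatase of JNK and p38, gave opposite signs, with a difference of -0.14 for the dimmer one, which lay between 5.17 and 5.38 on all 4 arrays, and a difference of 0.18 for the brighter one. Those of Dusp12, an atypical phosphatase, also gave opposite signs, 0.13 for the dimmer and -0.15 for the brighter one. With probe sets averaged per gene, Spred2 differed by 0.88 and passed (adjusted p = 0.0402 by limma), while Dusp8 differed by 0.016 and Dusp12 by -0.0092.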
